A study of Mus musculus with 136 samples.

Results

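The globins examined here are 7 genes of the 47643 in the deposited count table, selected by symbol alone: the embryonic beta-like genes Hbb-bh1 and Hbb-y, the embryonic alpha-like gene Hba-x, the adult alpha genes Hba-a1 and Hba-a2, and the adult beta genes Hbb-bt and Hbb-bs. Their transcripts were measured in 66 concepti of the NOD mouse strain, in which diabetes arises spontaneously in females, dissected at E8.5, 12 litters having a diabetic and 10 a normal dam, with 1 library from the embryo and 1 from the visceral yolk sac of each conceptus. At 5–6 somite pairs there were 17 concepti from diabetic and 17 from normal pregnancies, and at 7–9 somite pairs 16 and 16. Maternal glucose at euthanasia was 423–595 mg/dl in diabetic dams, apart from a litter labelled only as above the meter's range, and 105–164 mg/dl in normal dams. All dams were NOD mice fed chow, so that the normal pregnancies carry the genetic susceptibility too, and no transgene or inducing drug was involved. The dams' ages were not used here. Concepti of 1 litter share their dam, and litter D24M15 gave 7 of the 16 later diabetic concepti, so that p-values over concepti measure a spread that is partly within litters. Yolk sacs carry the somite number of their embryo.

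Hemoglobin is a tetramer of alpha-like and beta-like globin chains that carries oxygen in red blood cells. In the mouse, the blood islands of the visceral yolk sac produce the primitive erythroid cells, which express embryonic globins before the heart circulates them into the embryo proper. The adult globins become the predominant chains later, when definitive erythroid cells from the fetal liver replace the primitive ones. Around the somite stages sampled here the circulation is being established, and the visceral yolk sac holds visceral endoderm, blood islands, endothelium and mesoderm side by side.

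The beta-like genes lie in 1 cluster on the minus strand of chromosome 7 and the alpha-like genes in 1 cluster on the plus strand of chromosome 11 (positions from GENCODE M21 on GRCm38, the build mm10 named in the submitters' processing notes). By rising coordinate, with the adult genes before the embryonic ones, the beta cluster reads Hbb-bt at chr7:103812524-103813996, Hbb-bs at chr7:103826534-103828096, Hbb-bh1 at chr7:103841637-103843164 and Hbb-y at chr7:103851749-103853216. In the alpha cluster Hba-x lies at chr11:32276400-32278116, followed by Hba-a1 at chr11:32283511-32284465 and Hba-a2 at chr11:32296489-32297298. Sequence before the transcription start was matched by symbol in RefSeq's GRCm38.p6 table for 6 of the 7 genes, Hbb-bh1 having no entry. Windows of the 250 bases before the start were searched on both strands for AGATAA or TGATAA, the letters bound by GATA factors. The other motifs were CACCC, bound by the erythroid factor Klf1 and its relatives, and CCAAT, with no overlap between the 3 motifs. A GATA match was present in 5 of the 6 windows and absent in Hbb-bt, against 16.6% of all 32851 promoter windows. CACCC was present in 6 of 6 against 52.0%, and CCAAT in 5 of 6, all but Hba-x, against 33.8%. The stretches below, which lie outside annotated exons, show these letters in capitals for an embryonic beta-like gene, an adult alpha gene and the 2 adult beta genes, 5′ to 3′ on the strand of the gene. They run from chr7:103853217-103853457 for Hbb-y, chr11:32296242-32296488 for Hba-a2, chr7:103813997-103814173 for Hbb-bt and chr7:103827929-103828011 for Hbb-bs. The Hbb-bs stretch precedes the start in RefSeq and, within the wider span of the gene in GENCODE, lies in an intron of an Hbb-bs transcript that starts further upstream. It covers the last 83 bases of the Hbb-bs window. The GATA and CACCC matches of that window begin 210 and 90 bases before the start and are not printed. TTATCA and ATTGG are the motifs read from the other strand, and the final CC of Hbb-bt opens a further CCAAT that runs on into the first exon.
Hbb-y: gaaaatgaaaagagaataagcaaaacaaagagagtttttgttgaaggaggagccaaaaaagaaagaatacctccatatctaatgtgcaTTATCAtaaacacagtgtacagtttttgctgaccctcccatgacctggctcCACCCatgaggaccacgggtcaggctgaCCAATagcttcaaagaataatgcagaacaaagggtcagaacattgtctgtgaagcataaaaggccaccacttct
Hba-a2: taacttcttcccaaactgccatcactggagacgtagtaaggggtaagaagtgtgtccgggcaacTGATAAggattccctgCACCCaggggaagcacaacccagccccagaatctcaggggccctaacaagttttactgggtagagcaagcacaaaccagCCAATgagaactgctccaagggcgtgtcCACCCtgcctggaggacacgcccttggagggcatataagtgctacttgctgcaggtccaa
Hbb-bt: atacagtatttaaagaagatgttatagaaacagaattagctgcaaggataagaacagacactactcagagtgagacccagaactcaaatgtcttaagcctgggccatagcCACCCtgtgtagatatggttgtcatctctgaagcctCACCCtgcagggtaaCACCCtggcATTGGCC
Hbb-bs: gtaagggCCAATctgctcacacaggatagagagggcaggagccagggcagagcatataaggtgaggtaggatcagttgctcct

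The 2 adult alpha genes are nearly identical copies, and this limits what the counts can say of each. Their promoter windows were 97.6% identical, with a shared run of 247 bases, and the last 200 bases of their transcripts, where QuantSeq reads begin, were 84.7% identical with a shared run of 122 bases. Across the compared libraries Hba-a1 held 1023 counts in embryos and 33984 in yolk sacs, and Hba-a2 held 2 and 47. How reads that fit both genes were counted is not given in the sources used here. The split between Hba-a1 and Hba-a2 is therefore uncertain. So is their total, on which the adult shares and the ratios with alpha counts below rest. The adult beta genes Hbb-bt and Hbb-bs were 79.4% identical over the same 200 bases, with a longest shared run of 40 bases. The genome is that of another strain than NOD, and the effect of strain differences on the counts was not tested.

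Library totals lay between 1017901 and 5658850 counts around a median of 2302819. Some libraries stood apart in ways that touch the globins and are described before the results. The embryo D24M15G of a diabetic pregnancy has a second library, deposited as a batch control, and the original library held 944 counts of Hbb-bh1, 775 of Hbb-y and 884 of Hba-x in 2535105 counts, against 274, 102 and 105 in the 2626999 counts of the duplicate. After division by the totals these are ratios of 3.57, 7.87 and 8.72. Of the visceral endoderm markers with at least 20 counts, 9 of 9 were also higher in the original, at a median ratio of 3.66, whereas the endothelial markers had a median of 1.004 and the markers of the embryo proper 0.998. The 7 erythroid genes with as many counts had a median of 1.23, with 1 above and 1 below the duplicate beyond the counting interval. The duplicate of the yolk sac of the same conceptus gave a median ratio of 0.948 for the globins. The second duplicated conceptus, N28M06C of a normal pregnancy, had 48 counts of Hba-x in the original and 11 in the duplicate of its embryo, while Hbb-bh1 stood at 47 and 35. Duplicates were left out of the comparisons, and values with the duplicates in place of their originals are given beside the results on embryos. The 3 embryos of litter D28M36 from a diabetic dam carried the highest adult beta globin levels of all embryos, and results on these genes are given with and without that litter.

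In yolk sacs the embryonic globins were abundant and ordered the same way in most libraries. Levels are given as CPM, counts scaled to a common library total after TMM normalization. Since the method yields 1 tag per transcript from its 3′ end, CPM are not divided by transcript length, and levels of different genes are compared as tags per molecule. Hbb-bh1 ranged from 1184 to 8163 CPM with a median of 2146 at 5–6 somite pairs (n = 34), and from 1639 to 10770 with a median of 3940 at 7–9 (n = 32). It was the highest of the 7 globins in 33 of 34 and 28 of 32 yolk sacs. Hba-x stood at 289 to 1978 CPM with a median of 700 and at 872 to 8914 with a median of 2337. Hbb-y stood at 157 to 2057 CPM with a median of 574 and at 525 to 6762 with a median of 1849. The order of Hba-x over Hbb-y held in 26 of 34 and 23 of 32 yolk sacs, and the ranges of these 2 genes overlapped widely.

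The adult genes Hba-a1, Hbb-bt and Hbb-bs were present in every yolk sac at a lower level. Hba-a1 ranged from 39.6 to 376 CPM with a median of 154, and from 61.7 to 707 with a median of 266 at the later stage. All 3 embryonic globins were above Hba-a1 in 34 of 34 and 32 of 32 yolk sacs. Hbb-bs had medians of 42.4 and 55.9 CPM and Hbb-bt of 32.8 and 38.3, and Hbb-bs was the higher of the pair in 29 of 34 and 30 of 32 libraries. Hba-a2 had medians of 0 and 0.366 CPM, no library held more than 3 counts of it, and 19 of 34 earlier and 12 of 32 later yolk sacs held none. Together the 7 globins made up 0.230–0.784% of all counts in the earlier and 0.349–2.05% in the later yolk sacs. Of these globin counts, the adult genes contributed a median of 5.72% at 5–6 and 4.15% at 7–9 somite pairs.

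Embryos held few globin transcripts at 5–6 somite pairs. In normal pregnancies Hbb-bh1 ranged from 2.70 to 18.4 CPM with a median of 9.83 (n = 17), and in diabetic pregnancies from 0.305 to 33.4 with a median of 8.09 (n = 17). Hbb-y had medians of 3.24 CPM in normal and 2.54 in diabetic embryos, and Hba-x of 3.22 and 2.83. The globins made up 0.000697–0.0329% of the counts of these embryos.

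At 7–9 somite pairs the embryos differed widely from each other. In normal pregnancies Hbb-bh1 ranged from 3.05 to 250 CPM with a median of 30.4 (n = 16), and in diabetic pregnancies from 6.34 to 708 with a median of 45.5 (n = 16). The highest embryo exceeded the lowest 232-fold for Hbb-bh1, 653-fold for Hbb-y and 327-fold for Hba-x, while 7, 6 and 4 of the 32 embryos were above 100 CPM for these genes. Littermates with the same somite number were spread as well. The 6 embryos of litter D24M15 with 8 somite pairs had Hbb-bh1 between 10.3 and 344 CPM around a median of 35.0, and the highest of them is the embryo whose duplicate gave fewer globin counts. Of the 66 embryos, 0 had no count of Hbb-bh1, 1 none of Hbb-y, 1 none of Hba-x, 2 none of Hba-a1, 9 none of Hbb-bs, 14 none of Hbb-bt and 64 none of Hba-a2.

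**Figure D1:**
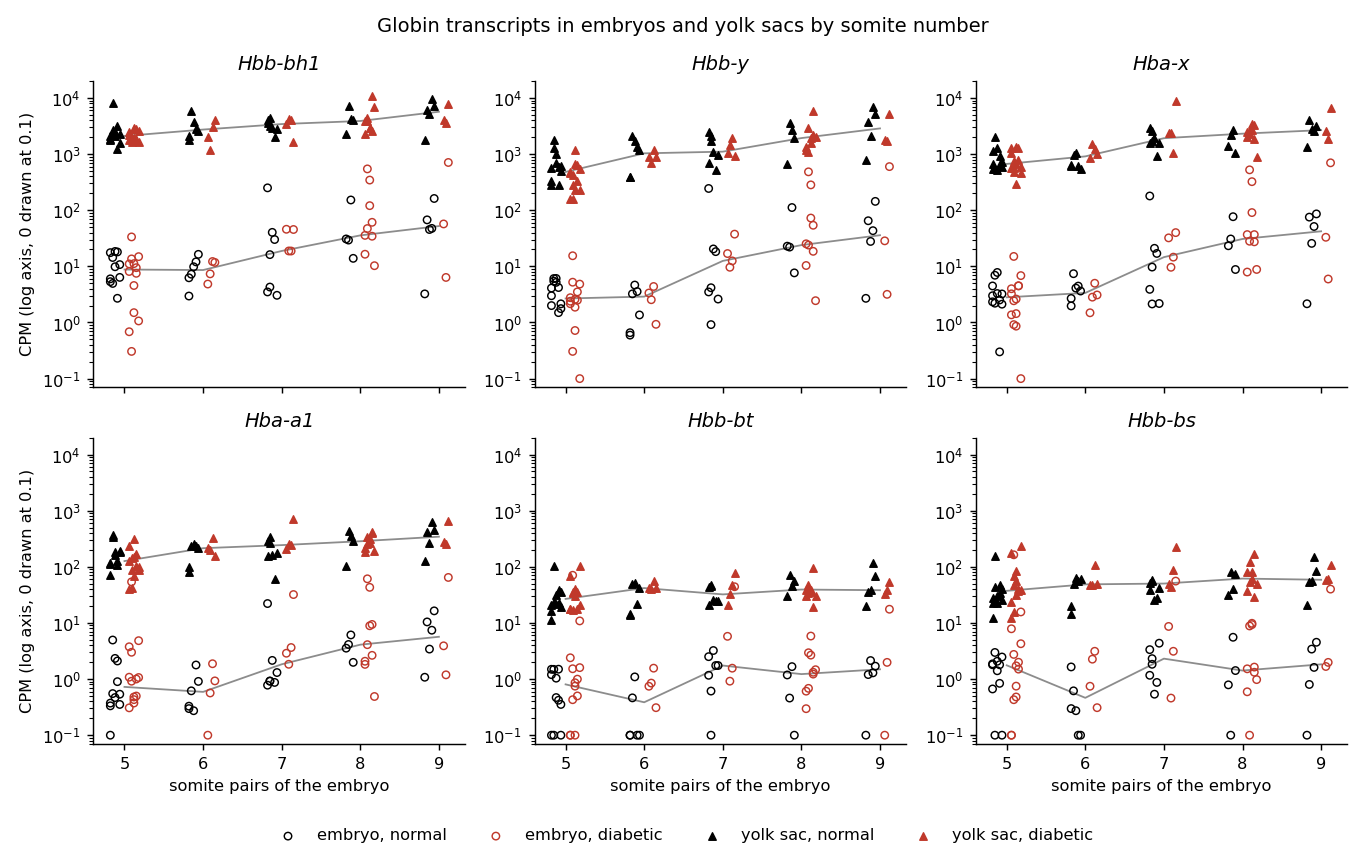
CPM of 6 globins (log axis, libraries without a count drawn at 0.1) against the somite number of the embryo, with a point for each of 66 embryos (circles) and 66 yolk sacs (triangles), coloured by maternal condition, and grey lines through the medians. The yolk sac medians lie above the embryo medians for every gene at every somite number, a few embryos overlap the lowest yolk sacs for Hba-a1, Hbb-bt, Hbb-bs and Hbb-y, and the median Hbb-bh1 of embryos is 8.78 CPM at 5 somite pairs and 52.2 at 9.

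All 6 globins tested were higher in yolk sacs than in embryos at both stages. At 5–6 somite pairs Hbb-bh1 was 269-fold higher (95% interval 165–439, log2 difference 8.07 ± 0.36 SE, adjusted p = 4.19e-46, edgeR quasi-likelihood test), Hba-x 230-fold (139–381) and Hbb-y 217-fold (122–386). Highest embryo and lowest yolk sac were far apart for these genes, at 33.4 and 1184 CPM for Hbb-bh1, 15.01 and 289 for Hba-x and 15.4 and 157 for Hbb-y. Hba-a1 was 77.7-fold higher (48.3–125), Hbb-bt 18.7-fold (11.66–29.96) and Hbb-bs 14.2-fold (8.49–23.6). For Hba-a1, Hbb-bt and Hbb-bs, 1, 1 and 2 embryos stood above the lowest yolk sac. As a ratio of the median CPM, Hba-a1 stood at 261, beside 244 for Hbb-bh1, 230 for Hba-x and 215 for Hbb-y, so that its order among these genes depended on the measure. Hbb-bt passed the filter on low counts through the yolk sacs and not in embryos alone. Among earlier embryos alone only Hbb-bh1 passed the filter, so that the calls of the other globins were in part set by the filter. Of all 12183 genes tested, 38.1% were called higher in yolk sacs at this stage. Hba-a2 did not pass the filter on low counts, and without the filter its log2 difference was 2.36 ± 0.38.

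At 7–9 somite pairs the fold differences of the main fit were smaller for the embryonic globins and Hba-a1 and similar for the adult beta genes. As a ratio of the median CPM, Hbb-bt went from 52.6 at 5–6 to 27.4 at 7–9 somite pairs and Hbb-bs from 29.2 to 33.8. At 7–9 this ratio was 104 for Hbb-bh1, 84.5 for Hba-x, 82.4 for Hbb-y and 76.5 for Hba-a1. Hbb-bh1 was 51.0-fold higher in yolk sacs (32.8–79.3, log2 difference 5.67 ± 0.32, edgeR adjusted p = 1.22e-35), Hba-x 37.3-fold (24.2–57.4), Hba-a1 34.1-fold (22.3–52.0) and Hbb-y 31.9-fold (19.7–51.9). Hbb-bt was 16.3-fold (10.2–25.8) and Hbb-bs 15.5-fold higher (9.298–25.96), with 1 and 2 embryos above the lowest yolk sac and 1 for Hba-a1. Among later embryos alone Hbb-bh1, Hbb-y and Hba-x passed the filter, and these 3 were called higher, against 39.1% of all genes. The embryo D28M36D, with Hbb-y at 598 CPM, exceeded the lowest yolk sac at 525, and no embryo did so for Hbb-bh1 or Hba-x. Blocking on the conceptus, which pairs each embryo with its own yolk sac, kept all 12 calls and moved the log2 difference to 6.62 for Hbb-bh1, 6.05 for Hbb-y and 6.21 for Hba-x at 7–9 somite pairs, and to 6.81 for Hba-a1, 4.91 for Hbb-bt and 4.65 for Hbb-bs at 5–6. Without litter D28M36 the differences at 5–6 somite pairs were 7.18 for Hba-a1, 5.22 for Hbb-bt and 4.92 for Hbb-bs, and those at 7–9 were 4.67 for Hbb-bt and 4.51 for Hbb-bs. In bulk tissue, fewer cells of a type and less RNA per cell cannot be told apart.

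The tissue labels matched the markers of visceral endoderm. Of 10 visceral endoderm markers, among them Afp, Ttr and Apoa1, 9 passed the filter in embryos alone. These 9 were called higher in yolk sacs at both stages, against 38.1% and 39.1% of all genes. The medians of the log2 difference over all 10 were 5.22 and 5.70, against -0.04 and -0.03 over all genes. Of 8 markers of the embryo proper only 3 passed the filter in yolk sacs alone, so that most entered through the embryos and their count called is not given. The medians of their log2 differences were -4.015 and -4.545. Of the erythroid list, 19 of the 20 genes are in the table, but only 6 of them passed the filter in embryos alone, so that most entered through the tissue where they are high and their count called is not given. Among them are the transcription factors Gata1 (log2 difference 6.93 at 5–6 and 5.29 at 7–9 somite pairs) and Klf1 (6.25 and 5.22), and more weakly Tal1 (1.87 and 1.58) and Lmo2 (1.14 and 0.86), both of which also act in endothelium. The transferrin receptor gene Tfrc was lower in yolk sacs at 5–6 somite pairs (-0.34) and not called at 7–9 (-0.10). Of the 8 other globin genes 0 passed the filter in embryos, and Hbb-bh0 and Hbq1b passed it in yolk sacs. Endothelial markers were higher for 8 and 7 of 10 and lower for 2 and 2, with medians of 1.06 and 1.03. Of all 12183 genes, 4645 and 4761 were called higher and 5125 and 5132 lower. Of 8 markers of decidua and trophoblast, 3 passed the filter in embryos alone, and these 3 were called higher at both stages.

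Within each tissue, the change with somite number was tested to follow the globins through the stages. In yolk sacs, all 3 embryonic globins and Hba-a1 rose per somite pair in both maternal conditions, and Hbb-y rose most. In normal pregnancies Hbb-y rose 1.48-fold per somite pair (1.30–1.67), Hba-x 1.36-fold (1.22–1.52), Hbb-bh1 1.21-fold (1.10–1.33) and Hba-a1 1.198-fold (1.08–1.34). These are 4 of 6 globins tested, against 5.21% of all 11192 genes called higher. In diabetic pregnancies the folds were 1.65 for Hbb-y (1.45–1.89), 1.504 for Hba-x (1.34–1.70), 1.26 for Hbb-bh1 (1.15–1.38) and 1.31 for Hba-a1 (1.17–1.48), again 4 of 6, against 16.4% of all genes. The adult beta genes did not pass the test, with 1.16-fold (1.03–1.29) for Hbb-bt and 1.13-fold (0.982–1.30) for Hbb-bs in normal yolk sacs and 1.03 (0.924–1.16) and 1.05 (0.911–1.204) in diabetic ones. Hbb-bt was called in normal yolk sacs with litter as a random block (log2 change 0.25, limma adjusted p = 0.033) and without litter N28M06 (0.32, edgeR adjusted p = 0.00567) or N28M05 (0.28, edgeR adjusted p = 0.04999). Hbb-bs was called in diabetic yolk sacs without D28M53 (0.29, edgeR adjusted p = 0.0325). Over all yolk sacs the median of Hbb-y was 481 CPM at 5, 1031 at 6, 1104 at 7, 1926 at 8 and 2864 at 9 somite pairs, while that of Hbb-bs was 37.3, 48.6, 50.2, 61.7 and 58.7.

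Visceral endoderm markers moved with these changes in yolk sacs. Of the 10 markers, 7 rose in normal and 8 in diabetic yolk sacs, against 5.21% and 16.4% of all genes, by medians of 0.15 and 0.24 on the log2 scale. The summed level of the markers ranged from 4690 to 18680 CPM at 5–6 and from 9496 to 23970 at 7–9 somite pairs. With the mean of these markers as a covariate, 0 of the 4 calls held in normal yolk sacs, where Hbb-y had a log2 change of 0.27 ± 0.10 (edgeR adjusted p = 0.249), and only Hba-x remained called in diabetic ones (0.44 ± 0.12, edgeR adjusted p = 0.0263). The unadjusted edgeR p in normal yolk sacs was 0.00235 for Hba-x, 0.00773 for Hbb-y, 0.246 for Hbb-bh1 and 0.47 for Hba-a1. Calls were lost over all genes as well. Those called higher went from 583 of 11192 to 0 of 11688 in normal yolk sacs and from 1832 to 264 in diabetic ones. Leaving out litter N28M07 also took the calls of Hbb-bh1 (0.24, edgeR adjusted p = 0.0538) and Hba-a1 (0.21, edgeR adjusted p = 0.154) in normal yolk sacs, and Hba-a1 was not called without N24M29 or N28M30 either. The call of Hba-a1 in normal yolk sacs was also lost with the change taken between the 2 stages (0.65, edgeR adjusted p = 0.0818), without the filter (0.26, edgeR adjusted p = 0.0511) and with the number in the litter code as a covariate (0.23, edgeR adjusted p = 0.067).

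Of the erythroid genes in yolk sacs, 4 of 19 rose in normal pregnancies, among them Alas2, which catalyses the entry step of heme synthesis in red cells, and the anion exchanger gene Slc4a1. Alas2 rose by 0.24 and Slc4a1 by 0.35 on the log2 scale per somite pair. In diabetic pregnancies 10 of 19 rose, with Alas2 at 0.33 and Slc4a1 at 0.49, and Lmo2 fell by 0.20. In embryos only 6 of the 19 could be tested, of which 0 were called by edgeR in normal (2 at an unadjusted p under 0.05) and 2 rose in diabetic pregnancies, among them Tal1 by 0.16. The yolk sac medians of the list were 0.13 and 0.14, against -0.01 and 0.00 over all genes. Of all genes, 5.21% were called higher in normal and 16.4% in diabetic yolk sacs, and 1.53% and 14% in embryos.

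In embryos the embryonic globins rose more steeply than in yolk sacs. In normal pregnancies Hbb-y rose 2.17-fold per somite pair (1.59–2.96, log2 change 1.12 ± 0.23, edgeR adjusted p = 0.00315), Hba-x 2.04-fold (1.54–2.70, 1.03 ± 0.20) and Hbb-bh1 1.71-fold (1.32–2.21, 0.77 ± 0.19, edgeR adjusted p = 0.0109). These are 3 of 5 globins tested, against 1.53% of all 11702 genes called higher. In diabetic pregnancies Hba-x rose 3.27-fold (2.50–4.28, 1.71 ± 0.19), Hbb-y 3.23-fold (2.40–4.35, 1.69 ± 0.22), Hbb-bh1 2.48-fold (1.95–3.16, 1.31 ± 0.18) and Hba-a1 1.45-fold (1.13–1.86, 0.54 ± 0.18, edgeR adjusted p = 0.0187), 4 of 5 tested, against 14% of all genes. Hba-a1 in normal embryos stood at 1.67-fold (1.19–2.34) and did not pass (edgeR adjusted p = 0.0751). It was called with the change taken between the 2 stages (log2 change 2.41, edgeR adjusted p = 0.0258), by DESeq2 (0.74, adjusted p = 0.0359), with litter as a random block (0.85, limma adjusted p = 0.0144), with the endoderm markers as a covariate (0.81, edgeR adjusted p = 0.0384) and without litter D28M36 (0.74, edgeR adjusted p = 0.0186). Hbb-bs was at 1.15-fold (0.736–1.79) in normal and 0.867-fold (0.671–1.12) in diabetic embryos, neither called, and Hbb-bt and Hba-a2 were too low to test. The medians over all embryos show where the rise lay: Hbb-bh1 stood at 8.78 CPM at 5 and 8.59 at 6 somite pairs, then at 18.8 at 7, 35.6 at 8 and 52.2 at 9.

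The embryo slopes did not rest on the libraries that stood apart, with exceptions in Hba-a1 and Hbb-bh1. With the duplicates in place of their originals, the diabetic slopes were 1.24 for Hbb-bh1, 1.603 for Hbb-y, 1.618 for Hba-x and 0.46 for Hba-a1, all called, and without litter D28M36 they were 1.21, 1.61, 1.59 and 0.98. Hba-a1 lost its call in diabetic embryos without litter D28M23 (0.42, edgeR adjusted p = 0.0837) or D28M53 (0.47, edgeR adjusted p = 0.0736), and by DESeq2 (0.53, adjusted p = 0.0511). Hbb-bh1 lost its call in normal embryos without litter N28M06 (0.74, edgeR adjusted p = 0.0650) or N28M30 (0.68, edgeR adjusted p = 0.0503). Markers of other tissues moved with somite number in diabetic embryos. There 4 of 10 endothelial markers and 6 of 8 markers of the embryo proper rose, against 14% of all genes, with medians of 0.09 and 0.23 on the log2 scale. In normal embryos 0 and 0 of these markers were called by edgeR, against 1.53% of all genes (1 and 3 at an unadjusted p under 0.05), with medians of 0.05 and 0.11. Their part in the globin values was not tested. Of 9 visceral endoderm markers tested, 0 were called in either condition by edgeR, with 0 in normal and 2 in diabetic embryos at an unadjusted p under 0.05, the medians were -0.10 in normal and -0.03 in diabetic embryos, and Hnf4a was too low to test. Their summed level in embryos ranged from 70.4 to 765 CPM at 5–6 and from 40.9 to 1453 at 7–9 somite pairs. With these markers as a covariate, the slopes of Hbb-bh1, Hbb-y and Hba-x were 0.82, 1.19 and 1.10 in normal and 1.40, 1.90 and 1.89 in diabetic embryos, all called. Across embryos within a group, the mean log2 level of the embryonic globins and that of the markers were correlated in later normal embryos (Pearson r = 0.654, Spearman rho = 0.706, n = 16, adjusted permutation p = 0.0230, r = 0.768 without the 2 embryos farthest from the median, 0.692 within litters). In later diabetic embryos r was 0.292 (adjusted permutation p = 0.546), and in the earlier groups -0.08 in normal and -0.05 in diabetic embryos. The part of the endoderm markers in the globin values was not tested beyond the covariate.

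The list of adult blood markers names genes of white blood cells and platelets, and none particular to adult red cells. Of 10 markers of adult blood cells, Camp and Ngp had 0 counts in all compared libraries, Ptprc did not exceed 1 count and S100a8 5 counts in any embryo. Cd74, which encodes the invariant chain of MHC class II, was the only marker of the list that could be tested, and it rose per somite pair in all 4 groups by 1.15 to 1.35 on the log2 scale. The summed level of the 9 markers named in the deposited table, all but Igkc, ranged from 0 to 1.198 CPM in earlier and from 0.283 to 38.1 in later embryos. In yolk sacs it ranged from 0 to 11.5 and from 1.27 to 97.6.

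The difference between the embryo and yolk sac slopes was tested in 1 fit over both tissues, a test chosen after seeing the data. The embryonic globins rose more steeply in embryos by a factor of 1.86 per somite pair for Hba-x (1.499–2.302, log2 difference 0.89 ± 0.16, edgeR adjusted p = 5.55e-05), 1.73 for Hbb-y (1.37–2.19, 0.79 ± 0.17, edgeR adjusted p = 0.0014) and 1.70 for Hbb-bh1 (1.41–2.06, 0.77 ± 0.14, edgeR adjusted p = 7.9e-05). These are 3 of 6 globins tested, against 1.93% of all 12298 genes called in this direction. Hba-a1 stood at 1.21 (0.988–1.48), Hbb-bt at 0.865 (0.692–1.08) and Hbb-bs at 0.839 (0.664–1.06), none called. Without litter D28M36 the log2 difference of Hba-a1 went from 0.27 to 0.55 and was called (edgeR adjusted p = 0.017), and those of Hbb-bt and Hbb-bs were 0.016 and 0.0053. Of the visceral endoderm markers 0 of 10 were called by edgeR, although 9 had an unadjusted p under 0.05, with a median of -0.25. With the conceptus as a block the 3 differences were 0.50, 0.47 and 0.58 for Hbb-bh1, Hbb-y and Hba-x, all called. With litter as a random block they were 0.57, 0.49 and 0.59, and Hbb-y lost its call (limma adjusted p = 0.0651).

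**Figure D2:**
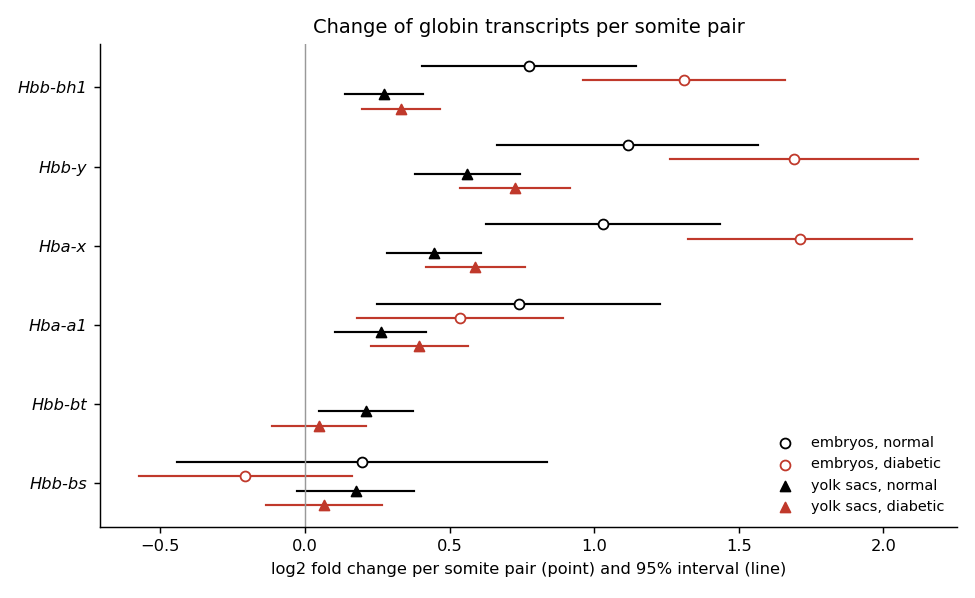
Log2 fold change per somite pair (points) with 95% intervals (lines) for 6 globins in embryos (circles) and yolk sacs (triangles) of normal (black) and diabetic (red) pregnancies, from edgeR fits over 66 libraries of a tissue. Embryo points of Hbb-bh1, Hbb-y and Hba-x lie to the right of the yolk sac points, at 0.77 to 1.71 against 0.27 to 0.73, and Hbb-bt has no embryo point because it was too low to test.

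Each embryo can also be set against its own yolk sac. The summed CPM of the 3 embryonic globins in the embryo was a median of 0.358% of that in its yolk sac at 5 somite pairs (n = 24), 0.300% at 6 (n = 10), 0.644% at 7 (n = 11), 1.36% at 8 (n = 13) and 1.198% at 9 (n = 8). The same share for the median of the 10 visceral endoderm markers went from 3.21% at 5 to 1.94%, 1.597%, 1.36% and 0.917% at 9 somite pairs. At 5 somite pairs, 1 of 24 embryos had a larger share for the globins than for the endoderm markers, and at 6, 0 of 10. At 7, 8 and 9 somite pairs these were 2 of 11, 8 of 13 and 5 of 8. The shares describe these concepti and carry no test.

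**Figure D3:**
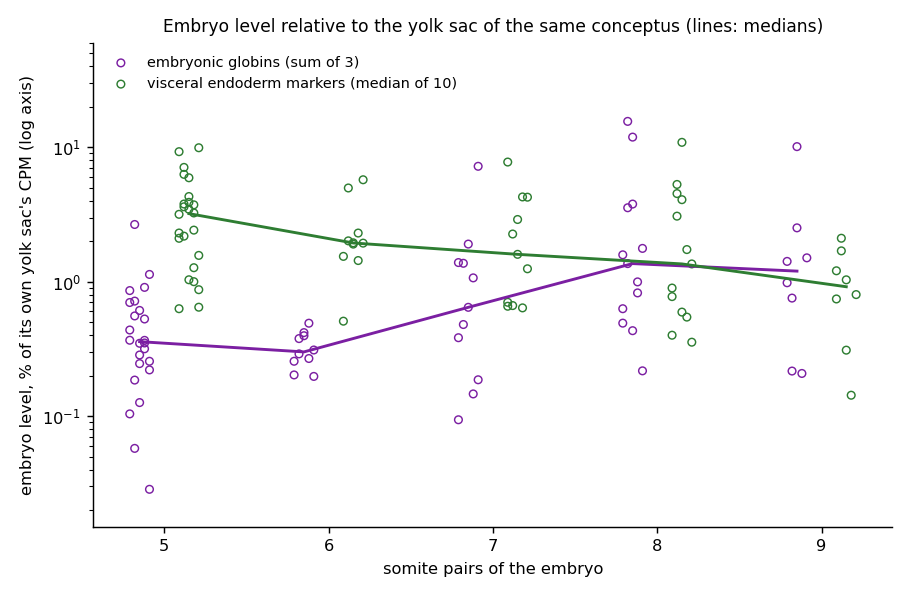
CPM in the embryo as a percent of the CPM in the yolk sac of the same conceptus (log axis) against somite number, for the sum of Hbb-bh1, Hbb-y and Hba-x (purple) and the median of 10 visceral endoderm markers (green), with lines through the medians. The globin medians go from 0.358% at 5 to 1.198% at 9 somite pairs and the marker medians from 3.21% to 0.917%.

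The make-up of the globin transcripts shifted with somite number. Ratios of counts, of 4 kinds, were formed in each library with 0.5 added to each sum, and the log2 ratio was correlated with somite number in each tissue and condition, giving 16 tests adjusted together. The ratio of Hbb-bh1 to Hbb-y fell in yolk sacs of normal (Pearson r = -0.604, Spearman rho = -0.589, adjusted permutation p = 0.00136) and diabetic pregnancies (r = -0.739, rho = -0.768, adjusted permutation p = 0.00016, n = 33 each). Without the 2 libraries farthest from the median somite number r was -0.579 and -0.750, and within litters -0.808 and -0.675. In normal embryos the ratio fell too (r = -0.507, rho = -0.525, adjusted permutation p = 0.00653, -0.450 without the 2 farthest, -0.494 within litters). In diabetic embryos r was -0.264 and rho -0.366 (adjusted permutation p = 0.163 for r and 0.046 for rho), with r = -0.605 (permutation p = 0.00039, unadjusted) when litter D28M53 was left out. The 4 embryos of that litter, all with 5 somite pairs, had Hbb-bh1 at 14.9, 0.684, 0.305 and 1.496 CPM. On average each yolk sac had a higher ratio than its embryo, by 0.57 ± 0.22 SE on the log2 scale at 5–6 somite pairs (24 of 34 concepti, adjusted permutation p = 0.0202 over 8 tests) and by 0.47 ± 0.12 at 7–9 (27 of 32, adjusted permutation p = 0.0008).

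**Figure D4:**
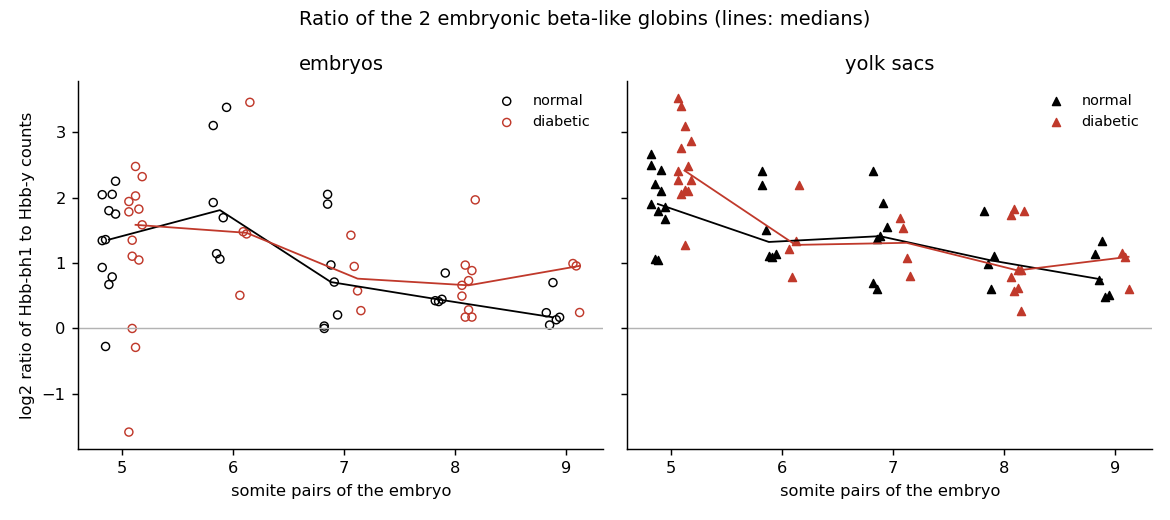
Log2 ratio of Hbb-bh1 to Hbb-y counts in each embryo (left) and yolk sac (right) against somite number, in normal (black) and diabetic (red) pregnancies, with lines through the medians at each somite number. All yolk sacs lie above 0, and the correlation with somite number is -0.604 in normal and -0.739 in diabetic yolk sacs.

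The balance of alpha-like to beta-like counts changed with somite number in embryos. In normal embryos the log2 ratio rose with somite number (r = 0.6005, rho = 0.594, adjusted permutation p = 0.00136, 0.534 without the 2 farthest, 0.482 within litters), and likewise in diabetic ones (r = 0.545, rho = 0.572, adjusted permutation p = 0.00246, 0.541 without the 2 farthest, 0.627 within litters). In yolk sacs r was 0.169 in normal and 0.255 in diabetic pregnancies (adjusted permutation p = 0.347 and 0.163), whereas the rank correlation passed in diabetic yolk sacs (rho = 0.390, adjusted permutation p = 0.0369) and not in normal ones (rho = 0.113, adjusted permutation p = 0.531). Beta-like counts exceeded alpha-like ones in both tissues on average, with mean log2 ratios of -1.72 in embryos and -1.71 in yolk sacs at 5–6 somite pairs and of -1.11 and -1.23 at 7–9, the difference between tissues being 0.01 ± 0.17 and -0.12 ± 0.17 (adjusted permutation p = 0.952 and 0.55). With 5 counts added to each sum, the difference at 5–6 somite pairs was -0.34, lower in yolk sacs, and was called (adjusted permutation p = 0.0312). The yolk sac that departed most from this was that of D28M36C, the shallowest library with 1017901 counts, in which Hba-x was the most abundant globin at 8914 CPM and Hbb-bh1 stood at 1639, the lowest level of the later yolk sacs. Its summed adult blood markers were at 97.6 CPM, the top of their range, and their part in these values was not tested.

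Adult globin counts fell relative to embryonic ones over these stages in most groups. The ratio of the adult beta genes to Hbb-bh1 plus Hbb-y fell with somite number in yolk sacs of normal (r = -0.444, rho = -0.438, adjusted permutation p = 0.0193) and diabetic pregnancies (r = -0.409, rho = -0.447, adjusted permutation p = 0.0305) and in diabetic embryos (r = -0.477, rho = -0.437, adjusted permutation p = 0.0116). In normal embryos r was -0.350 (adjusted permutation p = 0.0682) and rho -0.369 (adjusted permutation p = 0.046). Without the 2 libraries farthest from the median these were -0.380, -0.391, -0.511 and -0.294, of which the first 2 no longer passed. Without litter D28M53, r was -0.251 in diabetic yolk sacs (permutation p = 0.192, unadjusted) and -0.358 in diabetic embryos (permutation p = 0.0565, unadjusted), so that both calls were lost. Without N28M05 the adult to embryonic alpha ratio of normal yolk sacs described next was at -0.269 and lost its call too. The ratio of adult to embryonic alpha counts fell in diabetic embryos (r = -0.548, rho = -0.609, adjusted permutation p = 0.00136, -0.559 without the 2 farthest) and in normal yolk sacs (r = -0.380, rho = -0.405, adjusted permutation p = 0.0458, -0.320 without the 2 farthest, no longer called). It stood at -0.260 in normal embryos and -0.332 in diabetic yolk sacs, neither called. Relative to embryonic beta-like counts, adult beta counts were lower in the yolk sac than in the embryo of the same conceptus, by 2.87 ± 0.38 on the log2 scale at 5–6 (lower in 30 of 34 concepti) and 1.90 ± 0.31 at 7–9 somite pairs (adjusted permutation p = 4e-05 for both). The adult genes made up a median of 14.1% of the globin counts of earlier embryos, where the sums are of few counts, and 6.82% in later ones.

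The study's question on maternal diabetes was then put to the globins. In neither tissue and at neither stage was any of the tested globins called different between diabetic and normal pregnancies by edgeR with its filter on low counts, nor by DESeq2, whereas the adult globins of embryos were called under other filters and covariates given below. In earlier embryos only Hbb-bh1 passed the filter, at 0.919-fold (0.571–1.48, edgeR adjusted p = 0.871) in diabetic pregnancies, against 1.46% of all 11004 genes called in either direction. In later embryos the embryonic globins were higher on average, Hba-x 3.10-fold (1.27–7.60, log2 difference 1.63 ± 0.64, edgeR adjusted p = 0.0936), Hbb-bh1 2.35-fold (0.9997–5.511, edgeR adjusted p = 0.183) and Hbb-y 2.26-fold (0.876–5.83, edgeR adjusted p = 0.253), so that 0 of 3 were called against 9.03% of all genes, and at unadjusted p under 0.05 there was 1 of 3, Hba-x. These shares of all genes treat littermates as independent. With litter as a random block, 207 genes were called higher and 101 lower of 10628 in later embryos. In earlier embryos these were 2 and 2 of 11004. With counts summed per litter they were 7 and 1 of 12064 in later and 0 and 0 of 11706 in earlier embryos. Of 8 visceral endoderm markers tested in later embryos 0 were called by edgeR and 0 had an unadjusted p under 0.05, with a median log2 difference of 0.52, and their part in the globin values was not tested. The groups overlapped over most of their range, with medians of 45.5 and 30.4 CPM for Hbb-bh1. They also differed in somite number. At 7, 8 and 9 somite pairs there were 7, 4 and 5 normal and 4, 9 and 3 diabetic embryos. With somite number as a covariate the embryonic globins were not called either. The log2 differences of later embryos were 1.09, 0.76 and 0.65 for Hba-x, Hbb-bh1 and Hbb-y without litter D28M36, 2.07, 1.64 and 1.63 without D24M15, and 1.39, 1.04 and 0.94 with the duplicate of D24M15G in place of its original. Of 6 erythroid genes tested in later embryos 1 was higher, and in yolk sacs 0 of 17 and 0 of 19 were called by edgeR, with 5 and 1 at an unadjusted p under 0.05. Without D24M15, Hba-a1 passed the filter and was called higher in diabetic embryos (1.97, edgeR adjusted p = 0.0332).

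In yolk sacs 0 of 6 globins were called at either stage by edgeR, while 0% of all 10250 genes were called at 5–6 and 0.0194% of 10317 at 7–9 somite pairs. At 5–6 somite pairs Hbb-y was at 0.629-fold in diabetic pregnancies (0.419–0.945, edgeR adjusted p = 0.564), with a median of 471.5 against 621 CPM, and Hbb-bs at 1.54-fold (0.984–2.42). At 7–9 somite pairs Hbb-bs was at 1.45-fold (1.03–2.04, edgeR adjusted p = 0.413) and Hba-x at 1.38-fold (0.993–1.91), while Hbb-bh1 stood at 0.982-fold (0.722–1.34) and Hbb-y at 0.921-fold (0.607–1.40). The other globins lay between 0.807-fold and 1.21-fold, with intervals that include 1. At unadjusted p under 0.05 there was 1 of 6 at each stage, Hbb-y at the earlier and Hbb-bs at the later.

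The adult globins of embryos depended on the filter, the covariates and 1 litter. Without the filter on low counts, Hbb-bs was called higher in diabetic embryos at 5–6 (log2 difference 3.48 ± 0.74, edgeR adjusted p = 0.0154) and 7–9 somite pairs (2.15 ± 0.55, edgeR adjusted p = 0.0152), as was Hbb-bt (3.23 ± 0.75 and 2.06 ± 0.56, edgeR adjusted p = 0.0226 and 0.0254). With a mean count of at least 10 as the filter, Hbb-bs was called at 5–6 (3.49, edgeR adjusted p = 0.0221) and 7–9 somite pairs (2.15, edgeR adjusted p = 0.0203). At 7–9 it passed the filter and was called with somite number (2.17, edgeR adjusted p = 0.0207) or the endoderm markers (2.14, edgeR adjusted p = 0.0206) as a covariate. With the number in the litter code as a covariate, Hbb-bs (3.24, edgeR adjusted p = 0.0258) and Hbb-bt (3.04, edgeR adjusted p = 0.0342) were called at 5–6 somite pairs. At 7–9 the same covariate gave calls of Hbb-bs (2.44, edgeR adjusted p = 0.00457), Hbb-bt (2.30, edgeR adjusted p = 0.00924) and Hba-a1 (1.67, edgeR adjusted p = 0.0471). The embryonic globins were not called under any of these settings. The 3 embryos of litter D28M36 held most of these counts. Hbb-bs stood at 163.5 CPM in D28M36B with 5 somite pairs, 55.6 in D28M36C with 7 and 40.03 in D28M36D with 9, and the median over diabetic embryos was 1.72 at 5–6 and 1.83 at 7–9 somite pairs. Hbb-bt stood at 70.6, 44.1 and 17.5 CPM and Hba-a1 at 53.9, 32.03 and 64.6 in the same embryos. In D28M36B the adult genes contributed 93.1% of all globin counts, with Hbb-bh1 at 13.6 CPM, whereas D28M36D was also the embryo with the highest Hbb-bh1. The next embryo in order, D28M53A of another diabetic litter, had Hbb-bs at 15.7 and Hbb-bt at 10.9 CPM, and its yolk sac held the highest Hbb-bs of all, at 238 CPM. In the yolk sac of D28M36B Hbb-bs stood at 68.2 CPM, below the 163.5 of the embryo. The summed adult blood markers were at 0, 38.1 and 6.72 CPM in these 3 embryos, their part in the values was not tested, and Camp and Ngp were at 0. Without litter D28M36 and without the filter, 0 of the globins were called in embryos at either stage by edgeR, with Hbb-bs at 1.32 ± 0.50 and 0.81 ± 0.43 and Hbb-bt at 1.32 ± 0.54 and 0.64 ± 0.42, of which the 2 values at 5–6 somite pairs had an unadjusted p under 0.05.

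The change per somite pair was not called different between diabetic and normal pregnancies for any globin. In embryos the log2 difference of slopes was 0.68 ± 0.31 for Hba-x (a factor of 1.602, 1.04–2.46, edgeR adjusted p = 0.199), 0.58 for Hbb-y (1.49, 0.923–2.41) and 0.54 for Hbb-bh1 (1.45, 1.004–2.092), so that 0 of 5 were called against 1.71% of all genes, with 2 of 5 at an unadjusted p under 0.05. In yolk sacs the factors lay between 0.894 and 1.12, and 0 of 6 were called by edgeR or had an unadjusted p under 0.05, while 0% of all genes were called. For the ratios among the globins, 0 of 16 permutation tests between the conditions passed after adjustment. The lowest p was that of adult to embryonic beta counts in earlier yolk sacs, where the log2 ratio was 0.73 higher in diabetic pregnancies (mean -4.99 ± 0.98 SD against -5.71 ± 0.49, permutation p = 0.00788, adjusted permutation p = 0.126).

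The mean log2 CPM of Hbb-bh1, Hbb-y and Hba-x in each embryo was then set against that in its yolk sac. At 7–9 somite pairs the 2 levels were correlated in diabetic (r = 0.629, rho = 0.612, adjusted permutation p = 0.0256 for r over 4 tests, n = 16) and normal concepti (r = 0.585, rho = 0.676, adjusted permutation p = 0.0256, n = 16). At 5–6 somite pairs r was 0.563 in normal concepti (rho = 0.478, adjusted permutation p = 0.0256 for r, n = 17) and -0.162 in diabetic ones (rho = -0.196, adjusted permutation p = 0.537, n = 17). Without the 2 concepti farthest from the median r was 0.623, 0.666, 0.509 and -0.024 in this order, the third no longer called. Deviations from litter means gave 0.637 (n = 14, adjusted permutation p = 0.0558) in later diabetic, 0.491 (n = 14, adjusted permutation p = 0.144) in later normal, -0.111 (n = 12) in earlier normal and -0.190 (n = 13) in earlier diabetic concepti, so that none was called within litters. Later concepti also differ in somite number, which both levels follow. Calls were lost without litter D28M36 in later diabetic (r = 0.426, permutation p = 0.133, unadjusted), without N28M05 in later normal (r = 0.494, permutation p = 0.103, unadjusted) and without N24M29 in earlier normal concepti (r = 0.496, permutation p = 0.0605, unadjusted).

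**Figure D5:**
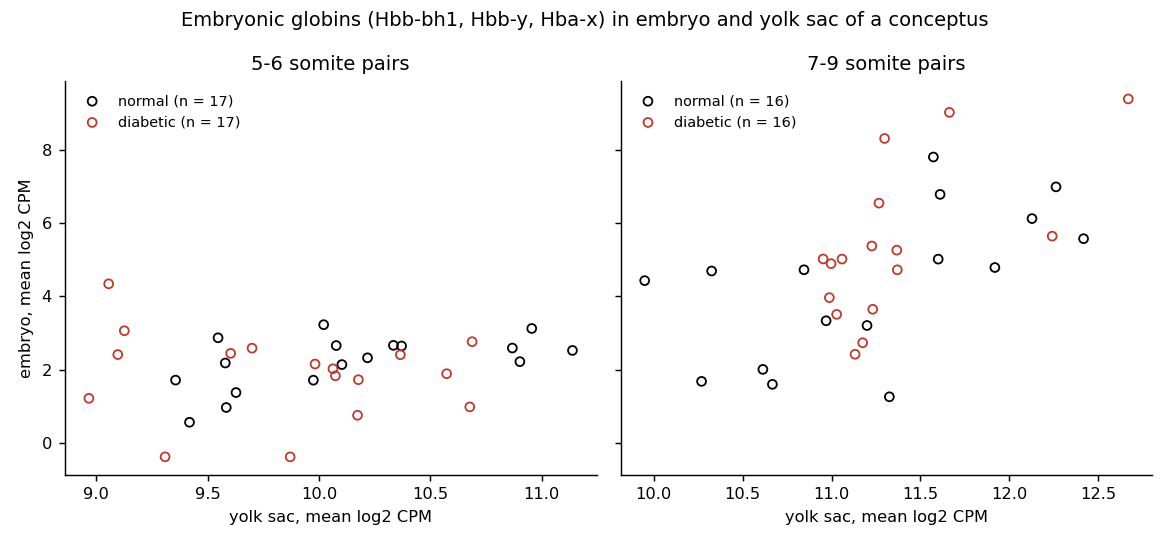
Mean log2 CPM of Hbb-bh1, Hbb-y and Hba-x in the embryo against that in the yolk sac of the same conceptus at 5–6 (left) and 7–9 somite pairs (right), with a point for each conceptus of normal (black) and diabetic (red) pregnancies. At 7–9 somite pairs the points rise together, with r = 0.585 in normal and 0.629 in diabetic concepti, and the embryos cover a wider range than the yolk sacs.

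The genes whose levels varied most like the embryonic globins differed between the tissues. Deviations from the stage and condition means were correlated with those of the mean of Hbb-bh1, Hbb-y and Hba-x over 66 libraries, as a description in which all points share library depth and the globins' own share of the counts. In yolk sacs the 10 closest of 10857 genes had r between 0.716 and 0.857, led by Alas2 at 0.857, Lum, which encodes a proteoglycan of connective tissue, at 0.793, Blvrb, a reductase of heme breakdown products, at 0.785, and the visceral endoderm product Afp at 0.782. Slc4a1, at 0.730, was also among them. In embryos the closest of 11304 genes reached only 0.545, for the G protein subunit gene Gng12, followed by Ell2 at 0.497 and the heme-binding protein gene Hebp1 at 0.495, and the tenth stood at 0.414.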

How the data were processed

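RNA was measured by QuantSeq 3′ FWD sequencing with unique molecular identifiers in embryos and visceral yolk sacs of NOD mice. Per the labels, the authors aligned the reads with STAR to mm10, collapsed molecular identifiers and counted with HTSeq (versions not given in the sources used here). The deposited values are raw counts of 47643 genes in 136 libraries, of which 132 were compared and 4 batch-control duplicates left out. For 25646 of 26051 genes without a symbol, names were taken from the annotation.

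The globins and all gene lists were chosen with earlier results of these data known. All 7 globins are named in every comparison, list genes by counts with up to 4 examples in list order or all that were called, and the genes most alike by rank. Values of some list genes are not reported here.

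Genes passing edgeR's filterByExpr (minimum count 10) were tested by the quasi-likelihood test with TMM normalization (edgeR 4.0.16, R 4.3.3), with Benjamini-Hochberg adjustment over all genes and a call at an adjusted p under 0.05. Slopes were fitted on somite number within each condition. The scripts were tested on simulated data. Ratios and correlations were tested two-sided by 100000 permutations. Intervals are 95%. Embryo and yolk sac with the same title code were taken as 1 conceptus, and the fit blocked on it was run for tissue differences. In D28M27C and N28M07E the sex labels of the 2 libraries differ, so that their pairing is uncertain. Leaving these 2 concepti out changed no call in the tissue differences, the tissue differences of ratios or the correlations of embryo and yolk sac. Diabetic and normal concepti share no dam. Alternatives were DESeq2 1.42.0, other size factors and filters, litter as a random block (limma 3.58.1), counts summed per litter, covariates, the duplicates, and each litter left out in turn.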

Additional observations from a re-analysis of the deposited data

Results flagged for a closer look

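The rise per somite pair differed between embryos and yolk sacs for 3 globins, each with an interaction term past the threshold. The log2 difference of slopes was 0.77 for Hbb-bh1, 0.79 for Hbb-y and 0.89 for Hba-x, and this test was chosen after seeing the data.

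Outside the main measurement, the original library of embryo D24M15G exceeded its batch-control duplicate beyond the counting interval for all 6 globins with counts in both. After division by the library totals, the ratios were 3.57 for Hbb-bh1, 7.87 for Hbb-y, 8.72 for Hba-x, 7.19 for Hba-a1, 3.32 for Hbb-bt and 2.80 for Hbb-bs. For the embryo N28M06C the ratio was 4.44 for Hba-x.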

How the results depend on the processing

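All 12 tissue calls kept direction and call under every alternative run. The block on the conceptus (replicate block) changed no call. Across all alternatives, 330 values that answer a comparison and 767 of single genes kept direction and call. The cause of the changes below was not tested.

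Numbers of globins called moved as follows. Diabetic embryos against normal ones had 2 calls at 5–6 and 2 at 7–9 somite pairs without the filter, 2 without the filter and litter D28M53, 1 and 1 with a mean count of at least 10, 2 and 3 with the title number as a covariate, and at 7–9 1 each with somite number and visceral endoderm markers as covariates. Yolk sac slopes had 0 (normal) and 1 (diabetic) with the latter covariate, where 0 and 264 of all 11688 genes were called higher. Leaving out litters gave 2 to 5 in normal yolk sacs and 0 to 1 in later embryos.

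Log2 values that changed sign, none called, were these. Summed per litter, Hbb-bh1 was 0.045 in earlier embryos and 0.0058 in later yolk sacs (diabetic minus normal), and 0.091 in earlier embryos without the filter and D28M53. With litter as a block, Hbb-bs was 0.37 for the diabetic embryo slope, 0.17 for its difference from normal and 0.077 for embryo minus yolk sac, Hbb-bt 0.15 for the last, and Hbb-y 0.068 for diabetes in later yolk sacs. Embryo minus yolk sac slopes with the conceptus as replicate block were 0.041 for Hbb-bs and 0.075 for Hbb-bt. With the title number, later yolk sacs had 0.077 for Hbb-bh1, 0.048 for Hbb-bt and 0.067 for Hbb-y. With endoderm markers, diabetic yolk sac slopes were -0.055 for Hbb-bs and -0.13 for Hbb-bt.

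Leaving out litters gave these log2 ranges. Diabetic minus normal was -0.35 to 0.11 for Hbb-bh1 in earlier embryos, -0.45 to 0.049 for Hbb-bh1 and -0.017 to 0.28 for Hba-x in earlier yolk sacs, and -0.17 to 0.12 for Hbb-bh1, -0.28 to 0.14 for Hbb-y, -0.068 to 0.40 for Hba-a1 and -0.28 to 0.090 for Hbb-bt in later yolk sacs. Slopes were -0.27 to 0.055 for Hbb-bs in diabetic embryos, their difference by condition -0.32 to 0.24 for Hba-a1 in embryos, -0.023 to 0.12 for Hbb-bh1 and -0.22 to 0.12 for Hbb-bs in yolk sacs, and embryo minus yolk sac -0.31 to 0.016 for Hbb-bt and -0.40 to 0.0053 for Hbb-bs.

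Correlations of ratios with somite number changed as follows, with calls after leaving out a litter judged at unadjusted p. Adding 5 counts gave -0.567 for adult to embryonic alpha and -0.515 for adult to embryonic beta in normal embryos, both then called. Within litters adult to embryonic beta was -0.448 in normal embryos (called) and -0.352 in diabetic yolk sacs (not called). Without the 2 farthest libraries, adult to embryonic alpha was -0.320 and beta -0.380 in normal and -0.391 in diabetic yolk sacs, none called. Leaving out litters gave -0.605 to -0.193 for Hbb-bh1 to Hbb-y in diabetic embryos, -0.55 to -0.358 and -0.41 to -0.290 for adult to embryonic beta in diabetic and normal embryos and -0.45 to -0.251 in diabetic yolk sacs, -0.429 to -0.227 and -0.48 to -0.269 for adult to embryonic alpha in diabetic and normal yolk sacs, and 0.183 to 0.378 and -0.0018 to 0.256 for alpha to beta in the same.

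Log2 ratios by condition, with 5 counts added, turned to -0.078 for adult to embryonic beta in later embryos, and the tissue difference of alpha to beta to -0.34 at 5–6 somite pairs, the latter then called (adjusted permutation p = 0.0312). Leaving out litters, diabetic minus normal was, in earlier embryos, -0.50 to 0.16 for Hbb-bh1 to Hbb-y, 0.64 to 1.203 for adult to embryonic alpha, -0.18 to 0.099 for alpha to beta and 0.96 to 2.04 for adult to embryonic beta. In earlier yolk sacs these were 0.28 to 0.52, -0.52 to -0.18, -0.015 to 0.34 and 0.34 to 0.81. In later embryos adult to embryonic alpha was -0.41 to 0.042 and beta -0.17 to 0.68, and in later yolk sacs Hbb-bh1 to Hbb-y -0.18 to 0.037 and adult to embryonic alpha -0.20 to 0.11.

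Embryo and yolk sac correlations within litters were -0.111 (earlier normal), 0.491 (later normal) and 0.637 (later diabetic), none called, and 0.509 (earlier normal, not called) without the 2 farthest concepti. Without single litters they were -0.405 to 0.036, 0.496 to 0.66, 0.494 to 0.661 and 0.426 to 0.708 in earlier diabetic, earlier normal, later normal and later diabetic concepti. Globins and endoderm markers in earlier embryos gave 0.0056 and 0.537 within litters and 0.086 and 0.028 without the 2 farthest, normal and diabetic. In embryos, 57 libraries of 66 held counts of Hbb-bs and the median was 4 counts, so that differences in adult globins there rest on few counts.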
